A study of Homo sapiens with 10 samples.

Results

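The 6 libraries made from cells that received a guide labelled INT, P4P6 or TOP1 were set against the 4 libraries made from cells with no guide (CasVP) or with the guide labelled sgRNA. They are 6 of the 10 libraries of the study, 2 for each guide, and were chosen by their labels. Every library came from HEK293FT, a readily transfected human embryonic kidney line, here carrying integrated Gaussia and Cypridina luciferase reporters. All cells received 59 ng of plasmid for dCas9~VP. Guide plasmids were given at 11.6 ng, transcribed from a U6 promoter and directed at the Gaussia reporter. Whole-cell RNA was taken 3 days later, and polyadenylated RNA was sequenced. The comparison covers features with a gene name and a mean of at least 1 FPKM (fragments per kilobase of transcript, corrected for library size) over the 10 libraries. This left 11574 of 20246 features, of which 11570 are the cell's own genes and the others are construct transcripts.

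In CRISPR activation, a Cas9 that cannot cut DNA carries an activation domain to the promoter that its guide RNA matches. A guide can be lengthened with a folded RNA that the complex then carries to the same site. Extra structured RNA is of interest for the host cell because double-stranded RNA is read by sensors such as RIG-I, MDA5 and PKR, which switch on interferon genes and shut down translation. Guides are also made by RNA polymerase III and turned over by the cell's own nucleases. The labels call the guides modified without saying what was added to each. P4-P6 is the name of a folded domain of the Tetrahymena group I intron, and the guide TOP1 is distinct from the gene TOP1, which codes for DNA topoisomerase I. That gene was at 51.1 ± 2.02 FPKM (SD, n = 6) in the modified-guide libraries and 50.6 ± 1.32 FPKM (SD, n = 4) in the others.

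The libraries were alike in the upper quartile of named features, between 18.3 and 18.7 FPKM. Their summed FPKM was less even. It was lowest in P4P6 (553565 and 535756) and ran from 562464 to 612551 in the other libraries. The scaling applied to these values is not stated. Relative depth, estimated from the steps between low values, ran from 69.4% (P4P6 replicate 0) to 102% (TOP1 replicate 0) of CasVP replicate 0. Numbers 0 and 1 are the index in the column names, which the labels do not tie to a replicate number. Along the leading principal component (34.0% of variance), P4P6 replicate 1 (15.5) and P4P6 replicate 0 (6.06) stood apart from the other libraries, between -8.09 and 3.31. The SD of the log2 difference between the libraries of a group was 0.19 for P4P6 and 0.10 to 0.14 for the other groups. Of 12 genes typical of HEK293 cells, 10 were at 1 FPKM or more in every library. The sum of all 12 was 208 to 214 FPKM with modified guides and 207 to 211 FPKM without. Of 17 measured markers of fibroblasts, epithelium, blood and endothelium, 10 stayed under 0.1 FPKM in every library. The sum of all 17 was 5.02 to 7.19 FPKM with modified guides and 5.22 to 6.17 FPKM without. COL1A2 and KRT5 were listed at 0 throughout.

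The targeted Gaussia transcript was read first as a check of the labels. It was at 23.8 and 22.7 FPKM in the CasVP libraries and at 787 and 857 FPKM in the sgRNA libraries. INT libraries held 356 and 366 FPKM, TOP1 libraries 257 and 273 FPKM, and P4P6 libraries 189 and 163 FPKM. All 6 modified-guide libraries therefore lay between both unmodified groups, above every CasVP library and below every sgRNA library, and the guides ordered as INT, TOP1 and P4P6 without overlap. The mean log2 level over the modified guides was 1.68 below sgRNA (SE 0.06, limma adjusted p = 5.92e-07) and 3.40 above CasVP (SE 0.06, limma adjusted p = 4.92e-10). Against both unmodified groups together the difference was 0.86 (SE 0.05, limma adjusted p = 4.17e-05), but the unmodified libraries span both extremes. With 2 groups of 6 and 4 libraries in place of 5 group means, the limma adjusted p was 0.900, and an exact permutation test (two-sided, 210 arrangements) gave p = 0.448.

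The dCas9-VP64 transcript, which every cell received, was not level across the groups. It was at 14.8 and 14.6 FPKM in CasVP and 24.0 and 23.4 FPKM in sgRNA. Among the modified guides it was at 25.6 and 25.9 FPKM in INT, 17.1 and 20.1 FPKM in P4P6 and 16.1 and 17.1 FPKM in TOP1. INT thus lay with sgRNA, while P4P6 and TOP1 lay between CasVP and sgRNA. The modified guides differed among themselves (limma F test, adjusted p = 0.0313), whereas the log2 difference of 0.09 (SE 0.04) from the unmodified libraries did not pass (limma adjusted p = 0.473; exact permutation p = 0.667). Cypridina, the reporter that no guide was directed at, was at 1.01 to 2.03 FPKM in the modified-guide libraries and 1.15 to 1.62 FPKM in the others (log2 difference 0.05, SE 0.08, limma adjusted p = 0.851; exact permutation p = 0.733).

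Guide transcripts were listed sparsely, in libraries that were selected for poly(A). The P4P6 transcript was at 0.440 and 0.761 FPKM in the P4P6 libraries and the TOP1 transcript at 0.331 and 0.441 FPKM in the TOP1 libraries, each listed at 0 in every other library. The INT transcript was at 1.38 FPKM in INT replicate 0 and listed at 0 elsewhere, including INT replicate 1. The sgRNA transcript was at 233 FPKM in sgRNA replicate 0 and 109 FPKM in P4P6 replicate 0, and was listed at 0 in the other 8 libraries, including sgRNA replicate 1. In P4P6 replicate 0 and in sgRNA replicate 1 the sgRNA transcript thus did not follow the labels. The P4P6 and Gaussia transcripts of P4P6 replicate 0 nonetheless lay with those of P4P6 replicate 1. Whether the value in P4P6 replicate 0 arose in the library or in the estimate for this feature was not tested. The sgRNA transcript alone was therefore no check of the labels.

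**Figure D1:**
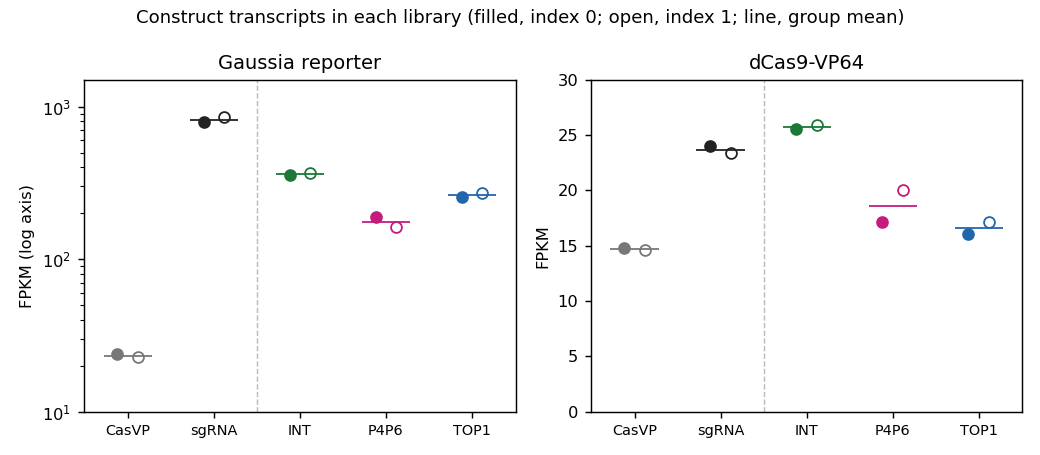
FPKM of the Gaussia reporter (left, log axis) and of dCas9-VP64 (right, linear axis) in each library, by group; filled and open points are the libraries of a group, lines are group means, and the dashed line parts the unmodified from the modified groups. The 6 modified-guide libraries lie between 163 and 366 FPKM of Gaussia, between CasVP and sgRNA.

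The main comparison asked whether guides with added RNA changed the cell's own genes in common. No endogenous gene passed: 0 of 11570 had a limma adjusted p under 0.05 (0%). Without adjustment, 1344 genes (11.6%) had a p under 0.05, 485 higher with modified guides (4.19%) and 859 lower (7.42%). A fit of 2 groups of 6 and 4 libraries takes the differences between guides into its spread. In it 0 genes passed, and 513 of 11570 had a limma unadjusted p under 0.05. The estimates of the fit with 5 group means were tight. The 95% confidence interval of the difference lay within 1.5-fold in either direction for 99.8% of genes, and within 1.2-fold for 92.2%, on the log2(FPKM + 1) scale, which understates changes of low genes. The median SE was 0.05, and 4 genes had an estimate beyond 0.5 in either direction. With 3 modified groups against 2 unmodified ones, 10 arrangements of the groups exist, so that no test on groups alone can give a p under 0.1. Nothing in the labels tells whether both libraries of a guide were separate cultures. The p-values and intervals of the fit with group means measure the spread between the libraries of a group. The spread between guides is not part of them.

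Without a test, 86 genes (0.743%) had no overlap between the 6 modified-guide and the 4 unmodified libraries. Of these, 33 were higher in every modified-guide library (0.285%) and 53 were lower (0.458%). For a single gene, such a separation has an exact permutation p of 0.00952 (two-sided, 210 arrangements). If the libraries were exchangeable, that fraction of genes would separate, and the share seen was no larger. The separated genes named below are therefore described and not called. The differences of the 86 genes were small. The median log2 difference was 0.11 among the higher genes and -0.11 among the lower genes, and the largest was that of TPM2. Of the 86, 0 passed the limma F test among the modified guides (background 7.41%). The 86 were chosen with all 6 modified-guide libraries on the same side, which favours that outcome. It therefore does not show that the guides acted alike on them.

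**Figure D2:**
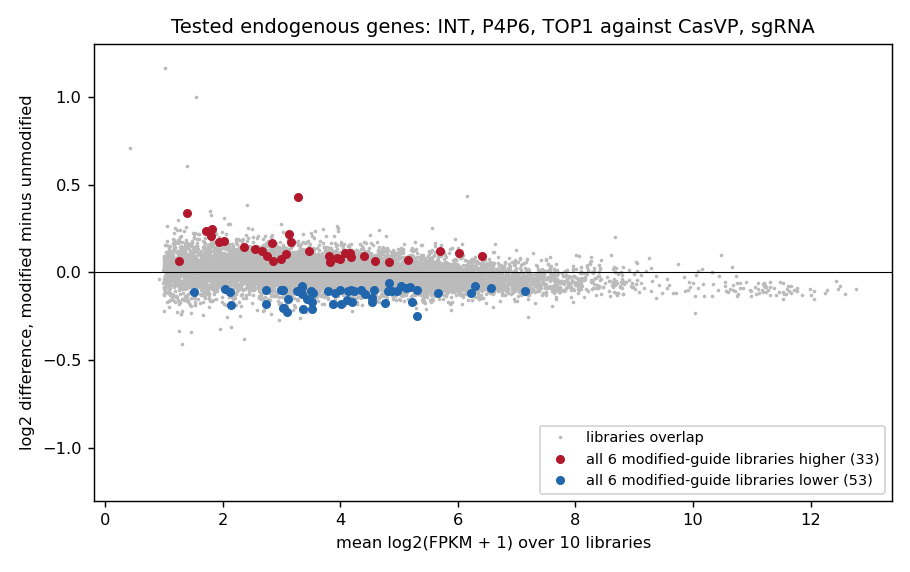
Difference of each endogenous gene between modified and unmodified guides (y axis, log2) against its mean log2(FPKM + 1) over the 10 libraries (x axis). Red and blue points are the 33 and 53 genes whose 6 modified-guide libraries all lie above or all below the 4 unmodified ones; most lie within 0.25 of 0, as do the grey points of genes whose libraries overlap.

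TPM2, which codes for beta-tropomyosin, an actin-filament protein, had the largest difference of the separated genes. It was at 7.07 and 6.38 FPKM in CasVP, 7.69 and 7.27 in sgRNA, 11.2 and 8.64 in INT, 10.7 and 11 in P4P6 and 9.51 and 8.62 in TOP1. The lowest modified-guide library thus held more than the highest unmodified one, and the modified mean was 140% of the unmodified mean. The log2 difference was 0.43 (SE 0.07) with a limma adjusted p of 0.307. Without INT replicate 1, which leaves a lone INT library, the log2 difference was 0.49.

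MSI1, an RNA-binding protein of neural progenitors, was at 7.67 and 7.55 FPKM in CasVP and 6.93 and 7.09 in sgRNA. It was at 8.34 and 8.33 FPKM in INT, 9.59 and 8.42 in P4P6, and 7.82 and 7.80 in TOP1. The TOP1 libraries were closest to the unmodified ones, and the log2 difference over the modified guides was 0.17 (SE 0.04, limma adjusted p = 0.337). The other higher genes named by the rule were C20orf46, SH2B3 (an adaptor that dampens cytokine signalling), MGAT5 (an N-glycan branching enzyme), DIXDC1 (a Wnt pathway protein), KIAA0907, RBM26 (an RNA-binding protein), IFT172 (a subunit of ciliary transport) and DOCK1 (an activator of Rac). Their modified means were 108 to 118% of the unmodified means. In DOCK1 the unmodified libraries spanned 15.1 to 15.3 FPKM and the modified ones 15.3 to 17.4 FPKM, with TOP1 replicate 0 just above the unmodified range.

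Among the lower genes, RPL13AP20 had the largest difference. It is named as a processed copy of the ribosomal protein gene RPL13A, with which it may share fragments, so its value is uncertain. It was at 41.4 and 41.3 FPKM in CasVP and 45.2 and 43.6 in sgRNA, against 40.5 and 36.1 in INT, 31.7 and 32.5 in P4P6 and 36.3 and 39.2 in TOP1. P4P6 was lowest, and INT replicate 0 came within 1 FPKM of the unmodified range. The log2 difference was -0.25 (SE 0.04, limma adjusted p = 0.307).

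SMAD7, an inhibitor of TGF-beta signalling, was at 10.9 and 10.1 FPKM in CasVP and 9.77 and 10.5 in sgRNA. It was at 9.18 and 8 FPKM in INT, 8.92 and 9.23 in P4P6 and 8.32 and 9.03 in TOP1. Here the modified guides were alike: their log2 differences from the unmodified libraries were -0.24 for INT, -0.16 for P4P6 and -0.22 for TOP1. GLT8D2, a glycosyltransferase family member, was as even, at 5.10 to 5.63 FPKM with modified guides against 6.07 to 6.28 FPKM without (log2 difference -0.18, SE 0.04, limma adjusted p = 0.337). ZNF239, POLD4 (the smallest subunit of DNA polymerase delta), STOML1, C11orf71, the joint feature of DHRS4 and DHRS4L2, ZFAND2A and CCDC28B completed the list, with modified means at 84.4 to 88.3% of the unmodified means. In STOML1 the log2 difference of -0.20 rested in large part on P4P6 replicate 1 and was -0.10 without that library.

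**Figure D3:**
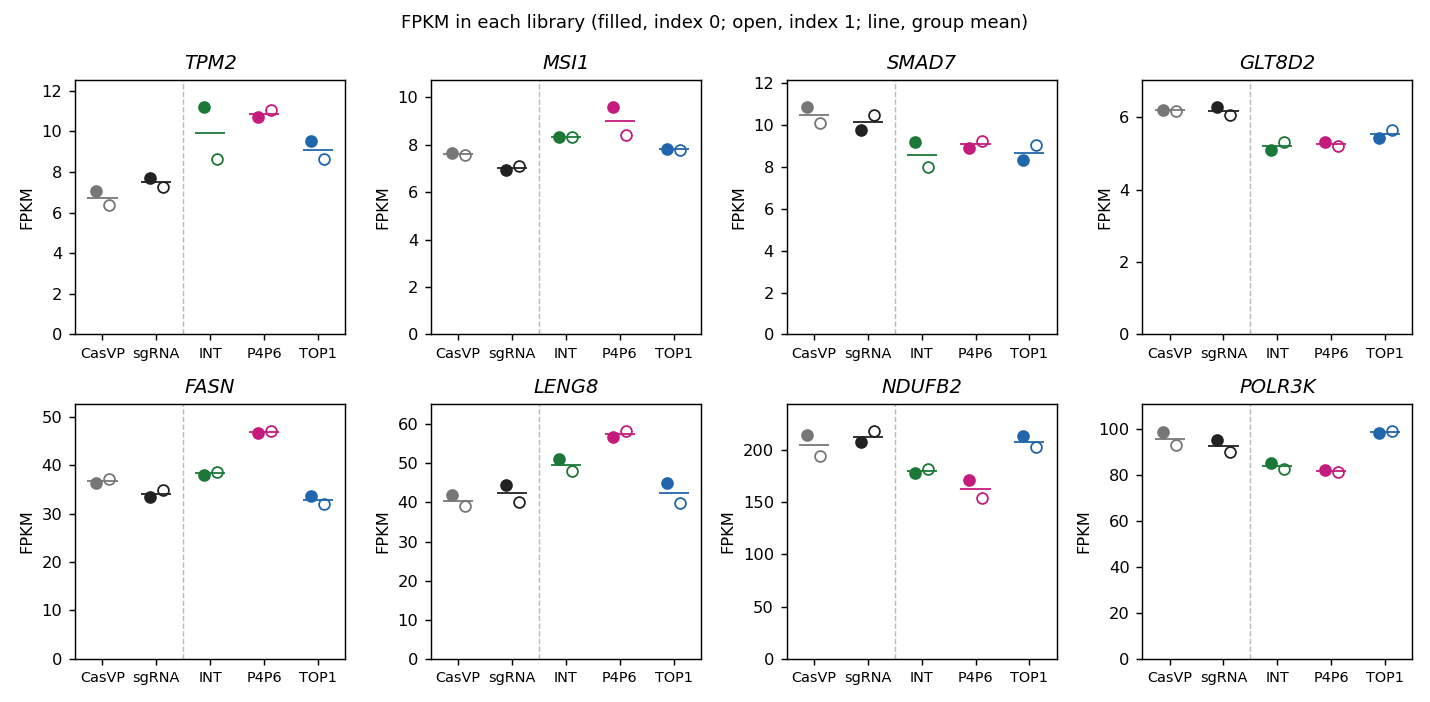
FPKM (y axis, from 0) of 8 genes in each library, by group; filled and open points are the libraries of a group and lines are group means. TPM2 and MSI1 are higher and SMAD7 and GLT8D2 lower in all 6 modified-guide libraries; in FASN, LENG8, NDUFB2 and POLR3K the P4P6 libraries lie outside the unmodified range while TOP1 lies near it.

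Against sgRNA alone, which removes the presence of a guide from the comparison, 0 genes passed (0%; limma unadjusted p under 0.05 in 1271, 11%). Lowest in p were RPL13AP20, C2orf28, C11orf10 and CDC37L1, a relative of the HSP90 co-chaperone CDC37. C11orf10 was at 274 and 268 FPKM in sgRNA and 227 and 224 in INT, 215 and 207 in P4P6, but 286 and 267 in TOP1. Its log2 difference over the guides was -0.20 (SE 0.04, limma adjusted p = 0.424), and TOP1 was on the side of sgRNA. Against CasVP alone, 0 genes passed (0%; limma unadjusted p under 0.05 in 994, 8.59%), and EXD3, TPM2, SAFB and ZNF138 were lowest in p. EXD3 was at 6.13 and 5.84 FPKM in CasVP, 7.30 to 8.52 FPKM with modified guides, and 8.07 and 7.76 FPKM in sgRNA. The CasVP libraries were low and those of all guides, sgRNA included, were high (log2 difference from CasVP 0.37, SE 0.06, limma adjusted p = 0.339). Both comparisons use the same 6 modified-guide libraries.

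Genes that sense foreign RNA did not pass in the modified-guide libraries. Of 27 listed RNA sensors, 17 were tested and 0 passed, with a median log2 difference of -0.02 against -0.0039 over all endogenous genes. EIF2AK2, the kinase PKR, was at 16.1 FPKM on average with modified guides and 15.4 FPKM without (log2 difference 0.05, SE 0.04). DDX58, which codes for RIG-I, was at 1.97 and 1.89 FPKM (0.04, SE 0.06), and its adaptor MAVS at 11.2 and 10.8 FPKM (0.06, SE 0.06). The largest estimate of the list was that of TRIM25, the ubiquitin ligase of the RIG-I pathway, at 11.1 ± 0.863 FPKM (SD, n = 6) against 10.2 ± 0.361 FPKM (SD, n = 4; log2 difference 0.11, SE 0.04, limma adjusted p = 0.396), and its libraries overlapped. ZC3HAV1, a zinc-finger antiviral protein, was at 10.2 and 9.75 FPKM and IFIT1 at 1.67 and 1.73 FPKM.

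Downstream of the sensors, 0 of 19 tested interferon-stimulated genes passed (median -0.02), with ISG15, a ubiquitin-like protein, at 7.83 FPKM with modified guides and 8.18 FPKM without. IFI27 was low and scattered, from 0.795 to 3.20 FPKM over all libraries, highest in P4P6 (3.20 and 3.09 FPKM). IFITM1 was at 7.14 ± 0.825 FPKM against 8.19 ± 0.953 FPKM (SD, n = 6 and n = 4). Of 9 NF-kappaB targets, 0 passed (median 0.03); NFKB2 was at 10.1 FPKM with modified guides and 9.18 FPKM without (log2 difference 0.12, SE 0.05).

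The machinery that makes, binds and degrades small RNAs also held no gene that passed. Of 19 tested genes for double-stranded RNA-binding and small-RNA processing proteins, 0 passed (median -0.01). ADAR, the RNA-editing deaminase, was at 75 FPKM with modified guides and 74.3 FPKM without, and DICER1 at 22.3 and 21.4 FPKM. DGCR8, the partner of DROSHA, was at 33.5 ± 1.87 FPKM (SD, n = 6) and 30.7 ± 1.04 FPKM (SD, n = 4; log2 difference 0.12, SE 0.04, limma adjusted p = 0.363), and EIF2C1, an Argonaute, at 8.46 and 7.73 FPKM.

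Of 32 genes for RNA polymerase III and its factors, 0 passed, with a median of -0.04 and 22 of 32 below 0 (31.2% above 0, against 47.8% of all endogenous genes). POLR3K, a subunit of the enzyme, was at 98.7, 93.1, 95.5 and 90.2 FPKM in the CasVP and sgRNA libraries. It was at 85.1 and 82.7 FPKM in INT and 82.2 and 81.5 FPKM in P4P6, below every unmodified library, but at 98.3 and 99.1 FPKM in TOP1, so that the guides did not share a direction (log2 difference -0.10, SE 0.03, limma adjusted p = 0.348; F test adjusted p = 0.0331). SNAPC2, of the complex that binds snRNA promoters, was at 5.72 and 5.08 FPKM (log2 difference 0.14, SE 0.05). Among 24 binding partners of polymerase III transcripts 0 passed (median -0.01); the RNase P subunits RPP40 and RPP30 were at 21.7 and 23.3 FPKM with modified guides and 24.5 and 25.8 FPKM without. Of 39 genes of the exosome and RNA decay 0 passed, 20 were above 0 and 19 below. EXOSC6, an exosome subunit, was separated in all libraries, at 13 to 14 FPKM against 12.1 to 12.9 FPKM (log2 difference 0.09, SE 0.04), while EXOSC1 and EXOSC5 lay lower with modified guides on average (42.6 against 45.3 FPKM and 50.9 against 56.2 FPKM).

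Lists of stress, growth and metabolism also held no gene that passed in the main comparison. Medians lay between -0.05 (30 genes of the integrated stress response) and 0.05 (21 immediate early genes) for heat shock genes, p53 targets, the unfolded protein response, sterol and fatty acid synthesis, glycolysis, the cell cycle, translation factors and splicing factors. For the 27 p53 targets the median of 0.03 joined opposite signs: it was -0.06 against sgRNA (20 of 27 below 0) and 0.12 against CasVP (22 of 27 above 0). CDKN1A, the cell-cycle inhibitor p21, was at 37.9 FPKM with modified guides and 35.6 FPKM without (log2 difference 0.09, SE 0.07), and DDIT3, the stress factor CHOP, at 69.7 and 74.9 FPKM (-0.10, SE 0.04). The lists farther from 0 differed in median transcript length from the 3554 nt of all tested genes: the matrix genes below were longer (6494 nt), and the other lists shorter (842 to 1591 nt). Cytoplasmic ribosomal proteins had a median of -0.09 (69 of 73 below 0), proteasome subunits -0.08 (27 of 29), subunits of the respiratory chain -0.07 (63 of 69), mitochondrial ribosomal proteins -0.06 (60 of 67), replication-dependent histones -0.11 (18 of 23), and basement membrane and matrix genes 0.09 (18 of 21 above 0). After quantile normalization the median of cytoplasmic ribosomal proteins was -0.0094, with 44 of 73 below 0. With the P4P6 libraries left out it was -0.02.

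The guides were next compared with each other. In the F test among INT, P4P6 and TOP1, 857 endogenous genes passed (7.41%; limma unadjusted p under 0.05 in 3197, 27.6%). FASN, the fatty acid synthase, had the lowest p of the cell's own genes. It was at 38.0 and 38.7 FPKM in INT, 46.6 and 47.0 in P4P6 and 33.6 and 32.0 in TOP1, beside 36.4 and 37.3 in CasVP and 33.5 and 34.8 in sgRNA. P4P6 was high and TOP1 at the low edge of the unmodified libraries (limma F test, adjusted p = 0.0147). ATXN2L, a stress granule protein, POLR2A, the largest subunit of RNA polymerase II, and MLL2, a histone H3 lysine methyltransferase, followed the same order, with P4P6 means of 70.7, 54.9 and 16.6 FPKM against 55.3, 46.3 and 12.9 FPKM without modified guides (limma F test, adjusted p = 0.0313 for each).

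Because P4P6 stood apart, each guide was also set against the same 4 unmodified libraries, a comparison added after the data were seen. With P4P6, 1420 genes passed (12.3%; limma unadjusted p under 0.05 in 3602, 31.1%), 549 higher (4.75%) and 871 lower (7.53%). With INT 0 genes passed (0%; limma unadjusted p under 0.05 in 1104, 9.54%), and with TOP1 0 genes passed (0%; 526, 4.55%). P4P6 against INT and TOP1 together gave 1114 genes (9.63%; unadjusted 3489, 30.2%), 490 higher (4.24%) and 624 lower (5.39%). P4P6 was singled out here because it stood apart in these same libraries, and the p-values do not allow for that choice. Without a test, both P4P6 libraries lay outside the range of the 4 unmodified ones, on the same side, in 4454 genes (38.5%), against 2519 for INT (21.8%) and 1759 for TOP1 (15.2%). Estimates beyond 0.25 in either direction numbered 730 for P4P6, 97 for INT and 71 for TOP1.

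The numbers of genes that passed in these P4P6 comparisons depend on single libraries. Leaving out a library leaves a lone library in its group and fewer residual degrees of freedom. A call lost in this way does not show that the difference itself rests on the library left out. Against the unmodified libraries the count was 1 without P4P6 replicate 1 (ELOVL5) or CasVP replicate 0 (AFF1), and 0 without CasVP replicate 1 or either sgRNA library. ELOVL5, a fatty acid elongase, was at 349 FPKM in P4P6 replicate 0 and at 55.5 to 62.6 FPKM in the other 9 libraries. Without P4P6 replicate 0, the library that held sgRNA transcript, P4P6 gave 1875 genes against the unmodified libraries and 1738 against INT and TOP1, the F test gave 1457 and the main comparison 0, with 60 higher and 84 lower separated genes. A lone P4P6 library is assumed there to vary like the other groups. The F test passed 0 to 5 genes without P4P6 replicate 1 or any one CasVP, sgRNA or TOP1 library. P4P6 against INT and TOP1 passed 0 to 34 genes without P4P6 replicate 1, INT replicate 0 or any one TOP1, CasVP or sgRNA library. After quantile normalization 518 genes passed against the unmodified libraries, of which 72.0% were higher, against 38.7% before it. After removal of each library's trend with transcript length and GC content, chosen after seeing the data, 0 of the 9913 genes with a known length passed. In that fit 1983 of them still had a limma unadjusted p under 0.05 for P4P6 against the unmodified libraries.

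Among genes that passed and had a mean of at least 5 FPKM, the largest rise with P4P6 was that of TPM2 (log2 difference 0.55, SE 0.09, limma adjusted p = 0.0189). LENG8 was at 56.7 and 58.2 FPKM in P4P6 and 51.1 and 48.0 in INT, against 39.0 to 44.5 FPKM without modified guides and 44.9 and 39.8 in TOP1. P4P6 was highest, INT lay between, and TOP1 overlapped the unmodified libraries (P4P6 log2 difference 0.47, SE 0.06, limma adjusted p = 0.0189). The other leading genes that rose were ZDHHC8 (a palmitoyltransferase), AGRN (agrin, a basement membrane proteoglycan), TBX1 (a T-box transcription factor), FBRSL1, PKD1 (polycystin-1) and DOT1L (a histone H3 lysine methyltransferase), by 0.45 to 0.50 on the log2 scale. DOT1L was at 13.5 and 14.4 FPKM in P4P6 and at 8.06 to 10.9 FPKM in the other 8 libraries.

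The leading genes that fell with P4P6 were KRTAP19-1 (a keratin-associated protein), SLC39A11 (a zinc transporter), C15orf41, RPL13AP20, APOC1 (an apolipoprotein), CALCB (a calcitonin-related peptide), MRPL24 (a protein of the mitochondrial ribosome) and CRADD (a death-domain adaptor). Their log2 differences lay between -0.52 and -0.38. KRTAP19-1 was at 140 and 90.0 FPKM in P4P6, 117 and 135 in INT, 185 and 160 in TOP1, and 152 to 172 FPKM without modified guides. APOC1 was tighter, at 36.0 and 34.7 FPKM in P4P6 and 44.9 to 49.6 FPKM without modified guides (log2 difference -0.40, SE 0.05, limma adjusted p = 0.0189), with INT between (40.8 and 39.7 FPKM) and TOP1 within the unmodified range (48.2 and 46.1 FPKM).

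By gene group, the genes that fell with P4P6 included many for protein synthesis, energy and protein breakdown. Of 73 cytoplasmic ribosomal protein genes, 57 fell and 0 rose (median -0.24), beside 7.53% and 4.75% of all genes. RPL31 was at 3143 FPKM in P4P6 and 3890.5 FPKM without modified guides, a log2 difference of -0.31. Of 69 nuclear-encoded subunits of the respiratory chain, 36 fell and 0 rose (median -0.17). NDUFB2, a subunit of complex I, was at 171 and 154 FPKM in P4P6, 178 and 181 in INT and 213 and 202 in TOP1, against 194 to 218 FPKM without modified guides (P4P6 log2 difference -0.36, SE 0.06, limma adjusted p = 0.0189). Of 29 proteasome subunits 16 fell and 0 rose (median -0.16), with PSMD4 and PSMA5 leading, and of 67 mitochondrial ribosomal proteins 20 fell and 0 rose (median -0.14). The counts that fell were 0, 3, 2 and 3 after quantile normalization, in the same order, beside 145 of all 11570 genes. The ribosomal median was then -0.0095. The counts of these lists also changed with a P4P6 library left out. Without P4P6 replicate 1 the ribosomal median was -0.19.

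INT had smaller medians than P4P6 for the same lists and TOP1 medians of the other sign. For cytoplasmic ribosomal proteins these were -0.10 for INT and 0.05 for TOP1, for the respiratory chain -0.08 and 0.03, and for proteasome subunits -0.08 and 0.02. The comparisons share their 4 unmodified libraries. By library, the median deviation of ribosomal protein genes from their means was -0.14 and -0.23 in P4P6, 0.01 and -0.10 in INT, 0.14 and 0.09 in TOP1, 0.03 and -0.0086 in CasVP and 0.13 and 0.08 in sgRNA. TOP1 lay with sgRNA, and the groups of modified and unmodified guides overlapped.

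Other lists held calls in both directions or a share nearer to the 12.3% called over all genes. Of 58 translation factors 34.5% were called: 16 fell with P4P6, among them EIF6, EEF1B2 and subunits of eIF3, and 4 rose. Those that rose were EIF4G1, a scaffold of the cap-binding complex, EEF2K, the kinase of elongation factor 2, and EIF2C1 and EIF2C2, which share the name stem of initiation factors but code for Argonautes. Of 30 genes of the integrated stress response 5 fell (16.7%): ASNS (407 FPKM without modified guides, 336 FPKM in P4P6), ATF4 (798 and 688 FPKM), SARS, CEBPG and PSAT1. Of 43 cell cycle genes 5 fell, including CDK4 and PCNA, and 2 rose, FOXM1 and CDC25B (16.3% called). GAPDH, LDHB and ENO1 fell among 27 genes of glycolysis and hypoxia (11.1%). All calls in the integrated stress response and glycolysis lists fell, so their 16.7% and 11.1% stand beside the 7.53% of all genes that fell. The cell cycle list, called in both directions, is read against 12.3%. These shares were not tested.

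Rises with P4P6 were counted in matrix and fatty acid genes, beside 4.75% of all genes. Of 21 basement membrane and matrix genes 7 rose and 0 fell (33.3%, median 0.17): LAMA5 and LAMA1 (laminin chains), AGRN, COL6A1 and COL6A2, FN1 (fibronectin) and NID1 (nidogen). LAMA5 was at 3.72 FPKM without modified guides on average and 5.70 FPKM in P4P6, a log2 difference of 0.52. Of 22 fatty acid synthesis genes 5 rose and 0 fell (22.7%): FASN, MLXIPL and SREBF1, which code for transcription factors of lipid synthesis, TECR and SLC25A1. FASN was at 46.8 FPKM in P4P6 against 35.5 FPKM without modified guides (log2 difference 0.39, SE 0.04, limma adjusted p = 0.0189). Of 24 genes of sterol synthesis and uptake 0 passed (median -0.04). After quantile normalization 4 genes of the matrix list and 4 of the fatty acid list rose, beside 373 of all 11570 genes. Without P4P6 replicate 1, 0 matrix genes passed, and ELOVL5 was the only gene of the fatty acid list that did, so that the calls of all 5 fatty acid genes named above were lost.

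In the lists that bear on the guide RNA, calls with P4P6 are read against 12.3% of all genes (4.75% higher and 7.53% lower). Of 17 RNA sensors 1 fell, DDX3X, and 0 rose (5.88% called). Of 19 interferon-stimulated genes 1 rose, STAT2 (7.90 FPKM without modified guides, 9.49 FPKM in P4P6), and 0 fell (5.26%). Of 19 genes for double-stranded RNA-binding and small-RNA processing proteins 2 rose, EIF2C1 and EIF2C2, and 1 fell, ILF2 (15.8%). Of 32 polymerase III genes 2 rose, GTF3C1 and SNAPC4, and 2 fell, POLR3B and POLR3K (12.5%). Of 24 partners of polymerase III transcripts 1 rose, LARP1, and 2 fell, LSM3 and CCNT1 (12.5%). The decay list held the largest share of these, 23.1% of 39 genes: 3 rose, the nonsense-mediated decay factors UPF1 and SMG1 and the deadenylase subunit CNOT3, and 6 fell, among them EXOSC1, EXOSC9 and the nuclear exonuclease XRN2.

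**Figure D4:**
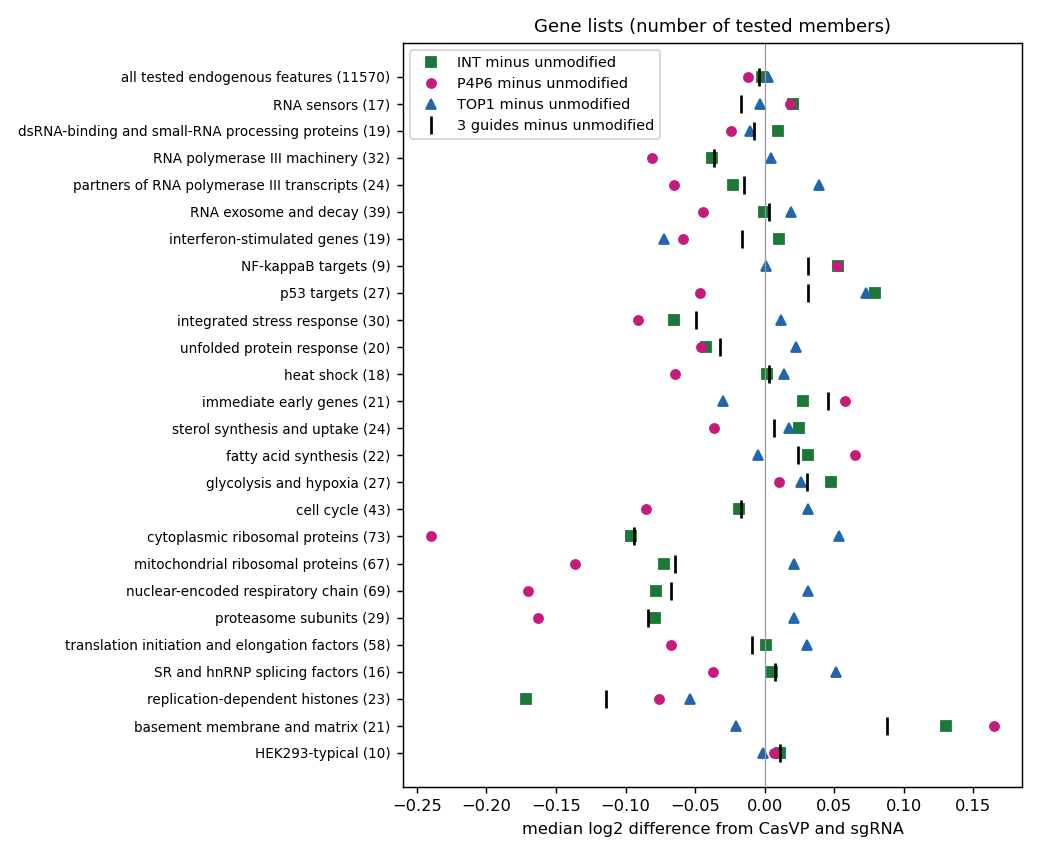
Median log2 difference from the unmodified libraries over the tested genes of each list (number in brackets), for INT, P4P6 and TOP1 (symbols) and for all modified guides (bars). P4P6 lies at -0.24 for cytoplasmic ribosomal proteins and 0.17 for matrix genes. TOP1 runs from -0.073 (interferon-stimulated genes) to 0.073 (p53 targets) over the lists shown, and the RNA sensors lie near 0 for every guide.

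Transcript length and GC content moved with these differences, and their part in them was not tested beyond the fit without those trends. Genes that rose with P4P6 had a median transcript length of 4727 nt and a GC content of 59.2%, and genes that fell 2024 nt and 44.7%, against 3554 nt and 48.4% over all tested genes with a known length (9913 genes). From the shortest to the longest quintile of genes, the median deviation of P4P6 libraries changed by 0.05 and 0.11 on the log2 scale and that of INT by 0.02 and 0.05. In the same measure TOP1 gave -0.06 and -0.05, sgRNA -0.07 and -0.07, and CasVP -0.0049 and -0.01. P4P6 and INT thus lay on 1 side and TOP1 on the side of sgRNA. In the quintile richest in GC, the P4P6 libraries deviated by 0.10 and 0.05, and the TOP1 libraries by -0.04 and -0.08. Of the cytoplasmic ribosomal proteins, with a median length of 1171 nt, 0 fell after removal of those trends, with a median of -0.15. The separated genes of the main comparison also differed in length, with medians of 4862 nt among the 33 higher and 2389 nt among the 53 lower.

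**Figure D5:**
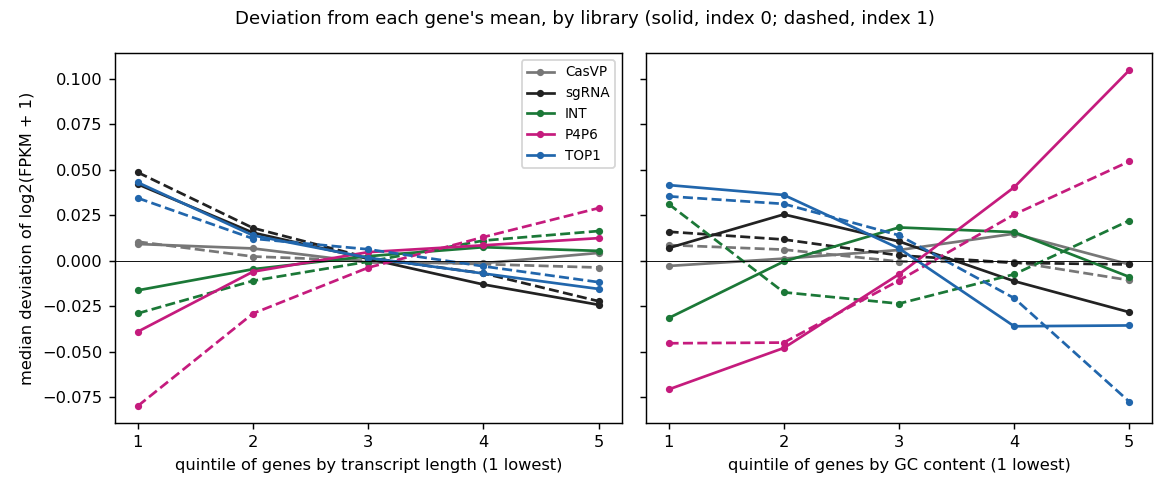
Median deviation of log2(FPKM + 1) from each gene's mean over the 10 libraries (y axis) in quintiles of genes by transcript length (left) and by GC content (right), 1 line per library. P4P6 libraries run from low to high along both axes, TOP1 libraries the other way, and both lie within about 0.1 of 0.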

How the data were processed

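FPKM were measured in 10 poly(A) libraries, 5 groups of 2; groups come from the sample titles. The authors deposited an FPKM matrix. The submitters' processing notes name TopHat2 2.0.13, Cuffdiff 2.2.1 and build hg19; the annotation, the scaling and each tool's step are not given in the sources used here. Counts are not part of these values, so total depth is unknown; at the estimated relative depths 79.2% of 11418 low values were whole multiples within 0.05. Unnamed features (945, 2.31 to 2.47% of summed FPKM) were left out; 509 tested features name several genes and 231 share a name. Differences were tested on log2(FPKM + 1) with limma (version 3.58.1, R 4.3.3; intensity trend; 5 group means in 1 fit, 5 residual degrees of freedom), two-sided, and Benjamini-Hochberg adjustment within each comparison over all tested features. On simulated data for the main comparison (11574 genes), 36 of 50 changes of 0.25 and 47 of 50 of 0.5 (log2) were recovered. Noise was independent between genes there, so these rates may be too high. Length and GC come from the longest coding transcript in GENCODE 29, matched by symbol (85.7% of tested genes).

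Named genes are those passing, or else 10 each way with a mean of at least 5 FPKM, no overlap and the largest difference; up to 3 members per list (6 in RNA lists); the 4 lowest p against sgRNA and against CasVP; the 6 lowest p of the F test. Genes named for P4P6 or beyond this were chosen after their values were seen, as were the comparisons of each guide. The members and the 27 gene lists were chosen with earlier results of these data known. Alternatives were a pseudocount of 0.1, other filters, 2 rescalings, a replicate block, no trend, library weights, 2 groups, each modified group or library left out, and removal of length and GC trends.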

Additional observations from a re-analysis of the deposited data

Results flagged for a closer look

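Among the genes named for the main comparison, 11 of 46 sets of values held a library whose gap to the next was large for the range of its set; about 1 set in 20 is marked by chance. Among modified-guide libraries the high ones were INT replicate 0 for C20orf46 (9.70 FPKM), P4P6 replicate 0 for MSI1 (9.59 FPKM), P4P6 replicate 1 for DIXDC1 (6.39 FPKM) and INT replicate 1 for RBM26 (72.1 FPKM). P4P6 replicate 1 was low for ZNF239 (5.43 FPKM), POLD4 (8.25 FPKM) and STOML1 (4.67 FPKM), and INT replicate 0 was low for CCDC28B (22.9 FPKM). Among unmodified libraries CasVP replicate 0 was high for SH2B3 (5.86 FPKM), CasVP replicate 1 was high for C11orf71 (8.64 FPKM) and sgRNA replicate 1 was low for KIAA0907 (47.5 FPKM). P4P6 replicate 1, which lies farthest out on the first principal component, accounts for 4 of the 11.

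The guides differed from each other by direct test in 857 endogenous genes (limma F test) and P4P6, singled out because it stood apart in the same data, differed from INT and TOP1 together in 1114.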

How the results depend on the processing

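The 20 genes named for the main comparison were chosen for libraries that do not overlap, which largely fixes their direction; of 457 alternatives over them, 1 gave a call (TPM2). Main: 1 gene passed with no filter (DEFB134, mean 0.208 FPKM) and 1 with the TOP1 group left out (C11orf10), and 0 to 2 with a library left out; the ranges were 0 to 1 against sgRNA and 0 to 2 against CasVP. Leaving out a library gave 45 to 130 separated higher genes and 62 to 205 lower. For the F test, P4P6 against the unmodified libraries, and P4P6 against INT and TOP1, the counts were 19, 751 and 338 with no filter; 210, 518 and 323 after quantile normalization, where 83.3% of the last were higher against 44.0% before; 9, 794 and 137 with no trend; 2, 0 and 0 with library weights; and 0, 0 and 0 with length and GC trends removed. With a library left out they ran from 0 to 1457, 0 to 1875 and 0 to 1738. INT alone gave 0 to 1, and TOP1 alone 0 to 1, and 1 with no filter (DEFB134). With length and GC trends removed, 1570, 1983 and 1837 of 9913 genes still had a limma unadjusted p under 0.05 in the F test and the 2 P4P6 comparisons. The cause of the changes in these counts was not tested.

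With a replicate block on the column index the counts were 1955, 2403 and 2282. The labels do not say whether the index pairs the libraries. Same-index deviations correlated at -0.04 to 0.42 over 10 pairs of groups, above 0.1 in 8. The mean correlation was above 0 in each of the 5 groups. Libraries of the same index thus shared part of their variation in most pairs, and the fit without a block leaves it in the residual spread. In the main comparison 0 genes passed with the block. A limma unadjusted p under 0.05 was found in 1898 genes with it and 1344 without.

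Of the constructs, the Gaussia difference of 0.86 did not pass in 2 groups (adjusted p = 0.900, limma). dCas9-VP64 changed sign with INT left out (-0.087), and Cypridina with P4P6 (-0.0012) or INT (-0.028) left out, and ranged from -0.0044 to 0.10 with a library left out. Without read counts, low genes have no stated counting error.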
